A study of Mus musculus with 2 samples.

Results

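Myrf and Tmem98, 2 of the 31053 genes in the deposited gene list, were followed across the cell classes of the mouse eye cup at e13.5. They were selected by symbol and each symbol matched 1 gene. The data were UMI (unique molecular identifier) counts per gene and cell from 2 libraries made on the 10X Genomics platform, 1 per genotype. The control library held Myrf fl/fl eye cups and the mutant library held Rx>cre Myrf fl/fl eye cups, so the floxed Myrf alleles were carried by both groups and Cre recombinase, driven by an Rx transgene that is active in the eye field and the optic cup derived from it, by the mutants alone. Each library pooled 3 samples of this embryonic age, after the cornea, lens and optic nerve had been taken off, and the members of a pool cannot be told apart in the counts. The comparison asks where the targeted gene and the gene of its partner protein were expressed, and how each differed between the genotypes.

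MYRF is a transcription factor made as a membrane protein. It assembles into trimers, cuts itself, and releases an N-terminal part that enters the nucleus and binds DNA. It is best known for switching on myelin genes in oligodendrocytes, the myelinating glia of the central nervous system. TMEM98 is a transmembrane protein that binds MYRF and inhibits this self-cleavage. Variants of both genes are known in nanophthalmos, a condition of small but otherwise formed eyes, in which the retinal pigmented epithelium (RPE), the pigmented sheet behind the photoreceptors, is a candidate site of action.

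Myrf (ENSMUSG00000036098) lies on the minus strand of chromosome 19, at chr19:10208272-10240748 of GRCm38, the assembly also called mm10. Its annotated 3′ end is 448 bp from the 3′ end of Tmem258, which is transcribed toward it from the other strand. Tmem98 (ENSMUSG00000035413) lies on the plus strand of chromosome 11, at chr11:80810175-80822033, and its nearest protein-coding neighbour, Myo1d, is 30150 bp away. No other GENCODE gene, of any biotype, overlaps either of them. The promoter of Tmem98, 1 of the 2 symbols matched in the RefSeq promoter table of GRCm38.p6, is shown because Tmem98 differed between the genotypes and MYRF is a DNA-binding protein. It covers 300 bases around the RefSeq transcription start on the plus strand, at chr11:80810116-80810415, and the capitals mark the match to a listed motif.

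Tmem98 promoter: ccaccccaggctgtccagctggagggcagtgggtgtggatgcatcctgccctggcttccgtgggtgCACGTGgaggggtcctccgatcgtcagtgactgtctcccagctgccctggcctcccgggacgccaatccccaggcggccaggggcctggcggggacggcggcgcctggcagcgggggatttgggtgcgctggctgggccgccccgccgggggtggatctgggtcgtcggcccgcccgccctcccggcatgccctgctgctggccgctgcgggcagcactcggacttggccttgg

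The motifs searched on both strands were CTGGCAC and CTGGTAC for MYRF, the E-box CACGTG and the core CATGTG for MITF and related factors, and TAATCC for OTX factors. The E-box had 1 match, which starts 184 bases before the RefSeq transcription start. The GENCODE start of Tmem98 lies 191 bases before the RefSeq one, so the match lies 7 bases after the GENCODE start, within the gene as GENCODE draws it. It was held by 7.15% of the 32817 promoters in the table. Neither MYRF motif, held by 5.01% and 2.24% of promoters, was in this window, and CATGTG, held by 14.2%, and TAATCC, held by 7.06%, were not either. The letters of the window were 74.3% G or C, against a median of 52.7% over the table. These matches describe the sequence and were not tied to any measured binding.

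The libraries held 6039 control and 6754 mutant barcodes with 63483835 and 75228861 UMIs. Removal of barcodes with under 200 genes, over 15% mitochondrial UMIs or a doublet mark left 5451 and 6309 cells. Clustering of both libraries together, in which Myrf, Tmem98 and the listed genes below were not used, gave 28 clusters. They were called X-like from marker lists and formed 13 named classes, while 4 clusters with 14.2% of control and 10.1% of mutant cells stayed unnamed. The RPE-like cells were 256 of the control and 153 of the mutant cells, or 4.70% and 2.43% of cells, with medians of 3956 and 3853 UMIs per cell and of 5.22% and 4.80% mitochondrial UMIs. The libraries shared 72 barcode sequences, 1 of them in a control RPE-like cell and 0 in mutant ones. Levels are CPM, the UMIs of a gene per 1000000 UMIs of the class. With 1 library per genotype there was no spread between replicates and no test was made. The 95% intervals, exact Poisson for a level, exact conditional binomial for a log2 ratio of mutant over control and Clopper-Pearson for shares, express the counting error alone.

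Myrf, the targeted gene, was lower in the mutant RPE-like cells. The control RPE-like cells held 155 Myrf UMIs, a level of 74.2 CPM (63.0 to 86.9). The mutant RPE-like cells held 30, a level of 20.1 CPM (13.55 to 28.7). The intervals do not overlap, and the level was 3.70-fold higher in the control (2.49 to 5.66), a log2 ratio of -1.85 (-2.50 to -1.32). The assay reads the 3′ end of transcripts, so a UMI can come from a transcript of the recombined allele if that allele is still transcribed, and these counts do not measure how many mutant cells had recombined. Tmem258, whose 3′ end faces that of Myrf, was at 300.3 CPM in the control and 319 CPM in the mutant, with its log2 ratio at 0.09 (-0.09 to 0.26).

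Tmem98 was lower in the same mutant cells, by a smaller ratio. Control RPE-like cells held 272 Tmem98 UMIs, or 130.3 CPM (115 to 147). Mutant RPE-like cells held 92, or 61.6 CPM (49.6 to 75.5). These intervals are also apart, and the control level was 2.12-fold the mutant level (1.66 to 2.71), a log2 ratio of -1.07 (-1.44 to -0.73). The authors place the onset of lower Tmem98 in mutant RPE at their next age after e13.5, from a comparison of cells with other filters. The lower level here thus precedes their stated onset, and the reason was not tested. Of the 6922 genes with at least 50 UMIs in RPE-like cells, 1.68% had a log2 ratio at or below -1 and 0.896% at or above 1, and the median over all of them was -0.03. Both Myrf and Tmem98 were among the former. Counted from the lowest ratio, Myrf was gene 14 and Tmem98 gene 88.

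Across the classes of the control library, Myrf was concentrated in the RPE-like cells. They held 62.5% of the 248 Myrf UMIs of kept control cells. The class next in order was melanocyte-like at 5.79 CPM (1.88 to 13.51) from 5 UMIs, followed by periocular mesenchyme-like at 2.39 CPM (1.76 to 3.18) from 47 UMIs. RPE-like cells stood apart from the rest of the order, while the interval of each lower class overlapped that of its neighbour. Retinal progenitor-like cells, the largest class with 1639 control cells, held 18 Myrf UMIs, or 0.932 CPM (0.552 to 1.47). The red blood cell-like class, not expected to express Myrf, gave 1 UMI, or 0.237 CPM (0.00599 to 1.32). Of the 12 named classes other than RPE-like, 5 held no Myrf UMI in the control and 6 none in the mutant library. The upper limits for these empty classes, at 3 counts, depended on their size. In the control they ran from 1.71 CPM in endothelial-like to 9.91 CPM in Schwann or neural crest-like cells, so a level like that of periocular mesenchyme-like cells would not have been detectable in most of them.

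**Figure D1:**
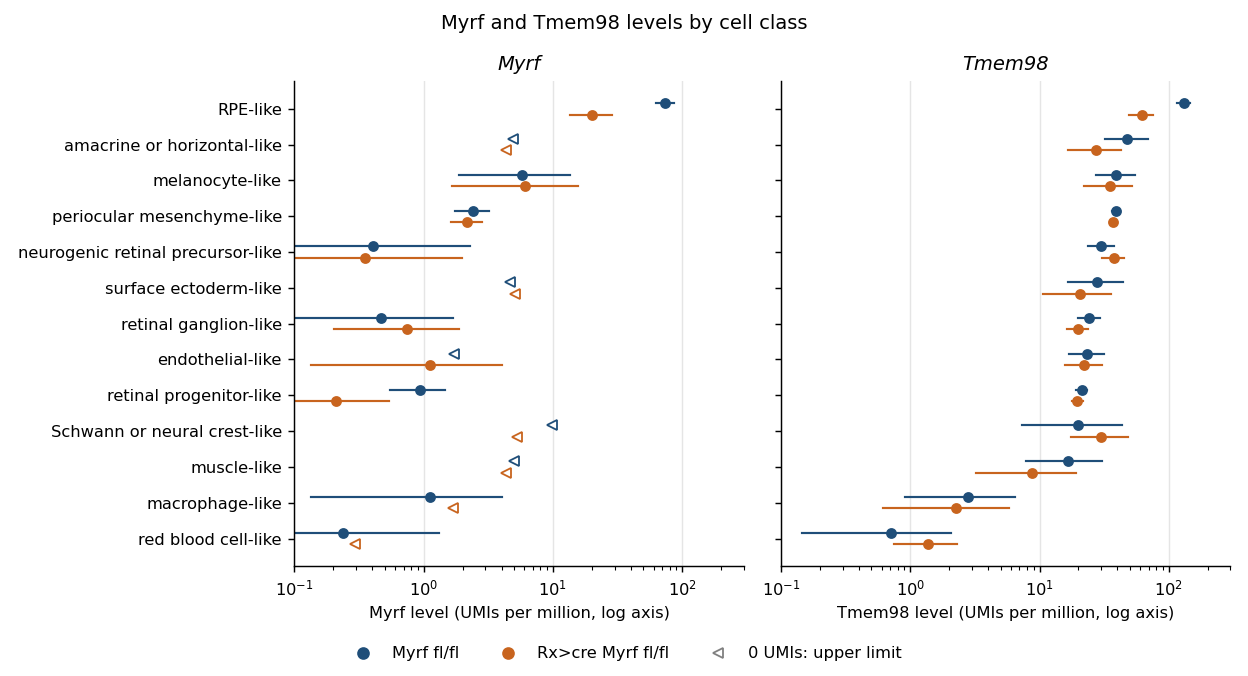
Levels of Myrf (left) and Tmem98 (right) in the 13 named classes, in UMIs per 1000000 UMIs on a log axis, for the Myrf fl/fl (blue) and Rx>cre Myrf fl/fl (orange) libraries. Points are sums over the cells of 1 library, lines are 95% Poisson intervals cut at the left edge of the axis, and open triangles are upper limits of 3 counts where no UMI was found. RPE-like cells are highest for both genes, with Myrf at 74.2 and 20.1 CPM, and Tmem98 is lowest in macrophage-like and red blood cell-like cells.

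Tmem98 was widespread. In the control library every named class held at least 3 Tmem98 UMIs. RPE-like cells were highest and their interval lay above that of the next class, amacrine or horizontal-like cells at 47.7 CPM (31.9 to 68.5). Melanocyte-like cells were at 39.4 CPM, periocular mesenchyme-like cells at 38.9 CPM (36.2 to 41.7), neurogenic retinal precursor-like cells at 30.1 CPM and retinal progenitor-like cells at 21.2 CPM (19.2 to 23.3). From amacrine or horizontal-like down to muscle-like cells at 16.5 CPM, each class overlapped its neighbour in the order. Below a gap came macrophage-like cells at 2.79 CPM (0.905 to 6.50) and red blood cell-like cells at 0.709 CPM (0.146 to 2.07). Because of this spread the RPE-like cells held only 14.6% of the 1860 Tmem98 UMIs of kept control cells, against 62.5% for Myrf.

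In the mutant library the order changed at the top for Myrf. RPE-like cells were still first, but their interval, 13.55 to 28.7 CPM, now overlapped that of melanocyte-like cells at 6.06 CPM (1.65 to 15.5), which came from 4 UMIs. They held 26.5% of the 113 Myrf UMIs of kept mutant cells. For Tmem98 the RPE-like cells also stayed first, and their interval of 49.6 to 75.5 CPM lay above that of neurogenic retinal precursor-like cells, next at 37.4 CPM (30.6 to 45.3), but overlapped that of melanocyte-like cells at 34.8 CPM (22.1 to 52.3), which came from 23 UMIs. Their share of the 1822 Tmem98 UMIs was 5.05%. A share of all UMIs of a library moves with the number of RPE-like cells as well as with the level in each, and that number was lower in the mutant library.

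Outside the RPE-like cells, 2 named classes held enough Myrf UMIs to be compared between the libraries. Periocular mesenchyme-like cells, from tissue around the optic cup, held 47 control and 54 mutant UMIs. Their levels, 2.39 and 2.18 CPM, had a log2 ratio of -0.14 (-0.72 to 0.46). The log2 ratio in RPE-like cells was lower than in these cells by -1.74 (-2.61 to -0.90), so the difference between the classes was beyond counting error. Retinal progenitor-like cells, which descend from the eye field as the RPE does, went from 18 UMIs to 4, with levels of 0.932 and 0.209 CPM and a log2 ratio of -1.91 (-4.18 to -0.56). Of all genes with at least 10 UMIs in these cells, 1.53% were at or below a log2 ratio of -1. Taken from the counts with no UMI added, their ratio and that of the RPE-like cells differed by 0.27. The interval ran from -1.47 to 2.39, so these counts cannot separate the 2 ratios. The neural retina classes were the retinal progenitor-like, neurogenic retinal precursor-like, retinal ganglion-like and amacrine or horizontal-like cells. Their summed Myrf UMIs were 21 for the control and 9 for the mutant, a log2 ratio of -1.21 (-2.61 to -0.11). Apart from RPE-like, periocular mesenchyme-like and retinal progenitor-like cells, no named class reached 10 Myrf UMIs over both libraries.

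Free RNA of broken cells can place RPE transcripts in other droplets, so the RPE markers were counted beside Myrf. Control RPE-like cells held 5.22 Myrf UMIs per 1000 UMIs of the 10 RPE markers. At that ratio the RPE marker UMIs found in control retinal progenitor-like cells would bring 5.86 Myrf UMIs, where 18 were counted. In control periocular mesenchyme-like cells they would bring 3.22, where 47 were counted. The corresponding numbers in the mutant library were 1.16 beside 4 counted and 1.15 beside 54. RPE marker UMIs were themselves lower in mutant than in control progenitor-like cells, at 30.9 against 58.1 CPM. Of the 18 control progenitor-like cells with a Myrf UMI, 11 held no RPE marker UMI, or 61.1%, against 65.3% of the other progenitor-like cells. Of the 45 control periocular mesenchyme-like cells with a Myrf UMI, 31 held none, or 68.9%, against 72.1% of the other cells of the class. RPE markers were at 107 CPM in these 45 cells, 1 of which held 53 RPE marker UMIs, and at 28.8 CPM in the others. The ratio of Myrf to RPE markers in free RNA was not measured, and the part of free RNA in these Myrf counts was not tested.

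Among smaller groups of cells, the unnamed cluster 0 held 7 Myrf UMIs in 560 control cells and 1 in 411 mutant cells, whose medians were 682.5 and 694 UMIs per cell, at 12.4 CPM (4.98 to 25.5) and 2.16 CPM (0.0546 to 12.02). It also held 296 and 119 RPE marker UMIs, or 524 and 257 CPM. Cluster 9, 1 of the periocular mesenchyme-like clusters, held 17 control and 11 mutant UMIs of Myrf, at 6.07 CPM (3.54 to 9.72) and 3.30 CPM (1.65 to 5.90), with 98 and 77 RPE marker UMIs. The unnamed cluster 16, led by Fmo1, Spp1 and Lypd1, held 10 and 13, at 5.04 CPM (2.42 to 9.27) and 6.14 CPM (3.27 to 10.5). It had 39 and 20 RPE marker UMIs, or 19.7 and 9.45 CPM. The part of RPE RNA in the Myrf counts of these clusters was not tested. Clusters 9 and 16 held Myrf in each library. The 1 mutant UMI of cluster 0 lies below its limit of 6.47 CPM at 3 counts. In all 3 clusters the intervals of the Myrf level overlap between the genotypes.

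**Figure D2:**
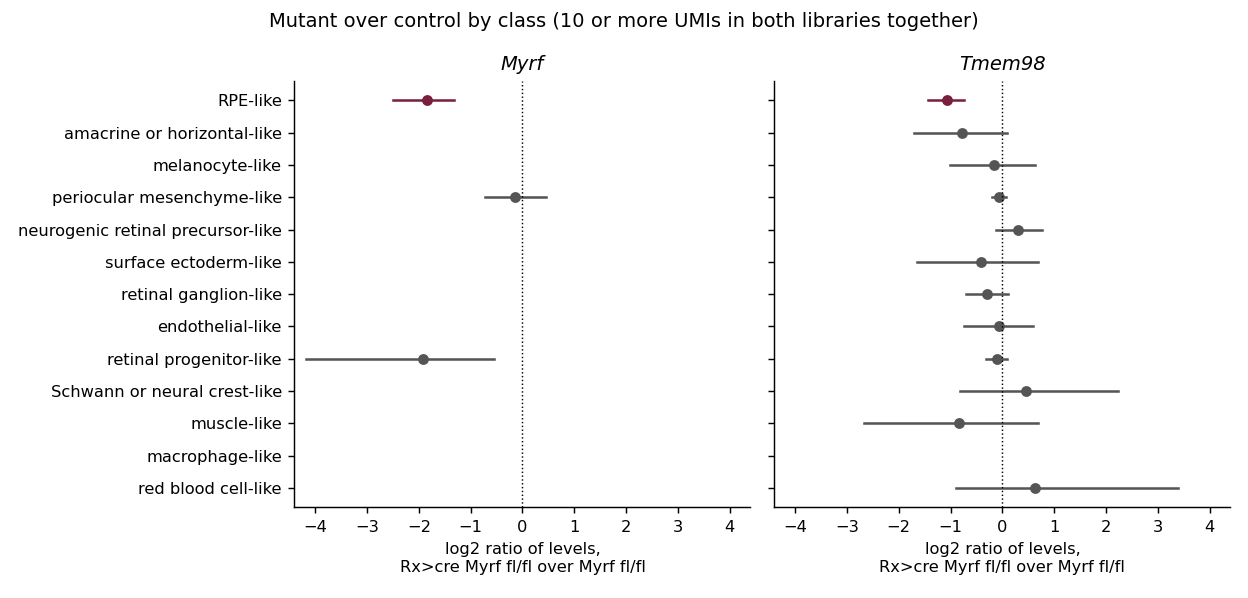
Log2 ratio of the level in the Rx>cre Myrf fl/fl library over the Myrf fl/fl library, for Myrf (left) and Tmem98 (right), in each named class with at least 10 UMIs of that gene over both libraries. Points are ratios of class sums and lines 95% conditional binomial intervals. The RPE-like cells lie at -1.85 and -1.07, and for Tmem98 no other class has an interval clear of 0.

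The lower Tmem98 level was seen in RPE-like cells and in no other class whose counts could resolve it. Of the 11 other named classes with at least 10 Tmem98 UMIs, 0 had an interval of the log2 ratio clear of 0, and their ratios ran from -0.83 in muscle-like to 0.63 in red blood cell-like cells. The best counted were periocular mesenchyme-like cells, with 764 control and 922 mutant UMIs and a log2 ratio at -0.06 (-0.20 to 0.08), and retinal progenitor-like cells, with 409 and 376 UMIs and a log2 ratio at -0.11 (-0.31 to 0.10). The RPE-like ratio lay below the mesenchymal ratio by -1.02 (-1.40 to -0.64) and below the progenitor ratio by -0.97 (-1.39 to -0.56). In amacrine or horizontal-like cells, with 29 and 19 UMIs, the log2 ratio was -0.77 (-1.71 to 0.09), an interval that holds both no difference and one as large as in RPE-like cells. Summed over the 8 classes outside the optic cup the log2 ratio was -0.23 (-0.36 to -0.09), and without red blood cell-like cells, which held hardly any Tmem98 and rose from 210 to 489 cells, it was -0.05 (-0.18 to 0.09).

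Within the RPE-like cells both transcripts were seen in a minority of cells. Myrf was found in 89 of 256 control cells, or 34.8% (28.9 to 40.9), and in 23 of 153 mutant cells, or 15.03% (9.77 to 21.7). Tmem98 was found in 118 control cells, or 46.1% (39.9 to 52.4), and in 53 mutant cells, or 34.6% (27.1 to 42.7). Red blood cell-like cells gave the background, with Myrf in 1 of 210 control and 0 of 489 mutant cells and Tmem98 in 2 and 12, with median depths of 22426.5 and 22706 UMIs per cell. No mutant cell held more than 3 Myrf UMIs, and 6 control cells held 4 or more. For Tmem98 the richest control cell held 12 UMIs and the richest mutant cell 6. The control sums were spread over cells, and the 10 richest control cells gave 23.9% of the Myrf and 23.2% of the Tmem98 UMIs.

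To compare shares at 1 depth, cells were thinned to 3000 UMIs and the result averaged over all possible draws. Shallower cells, 124 of the control and 73 of the mutant RPE-like cells, were not used. Myrf was then seen in 20.5% (13.9 to 28.3) of 132 control cells and in 5.50% (1.38 to 12.3) of 80 mutant cells. Tmem98 was seen in 31.1% (23.3 to 39.7) of the control and 16.5% (8.95 to 26.2) of the mutant cells. For Myrf the intervals of the libraries do not overlap at this depth, and for Tmem98 they do over a short stretch. In retinal progenitor-like cells Tmem98 was seen in 5.34% of mutant cells at the same depth, below the mutant RPE-like share. In periocular mesenchyme-like cells it was seen in 10.7% (9.33 to 12.2) of mutant cells, an interval that overlaps that of mutant RPE-like cells.

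Levels were also read within ranges of depth. In cells from 10000 to under 30000 UMIs, 99 control and 61 mutant, Myrf was at 75.8 CPM (63.0 to 90.5) and 21.1 CPM (13.49 to 31.3), and Tmem98 at 135 CPM (118 to 154) and 60.5 CPM (47.1 to 76.6). In the 29 control cells from 3000 to under 10000 UMIs, Myrf was at 82.4 CPM (47.1 to 134), while the 14 mutant cells of that range held 0 UMIs, which allows up to 39.3 CPM. In the 63 control cells from 1000 to under 3000 UMIs, Myrf was at 58.0 CPM (21.3 to 126), while the 43 mutant cells of that range held 0, which allows up to 42.8 CPM. For both Myrf and Tmem98 the intervals of the libraries overlapped in every range other than 10000 to under 30000 UMIs. From 3000 to under 10000 UMIs Tmem98 was at 118 CPM (75.1 to 178) in control and 52.4 CPM (14.3 to 134) in mutant cells. In cells under 1000 UMIs it was at 91.7 CPM in control and 93.7 CPM in mutant cells, from 4 and 2 UMIs. The same levels were met in shallow and deep control cells, within wide intervals for the shallow ones.

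**Figure D3:**
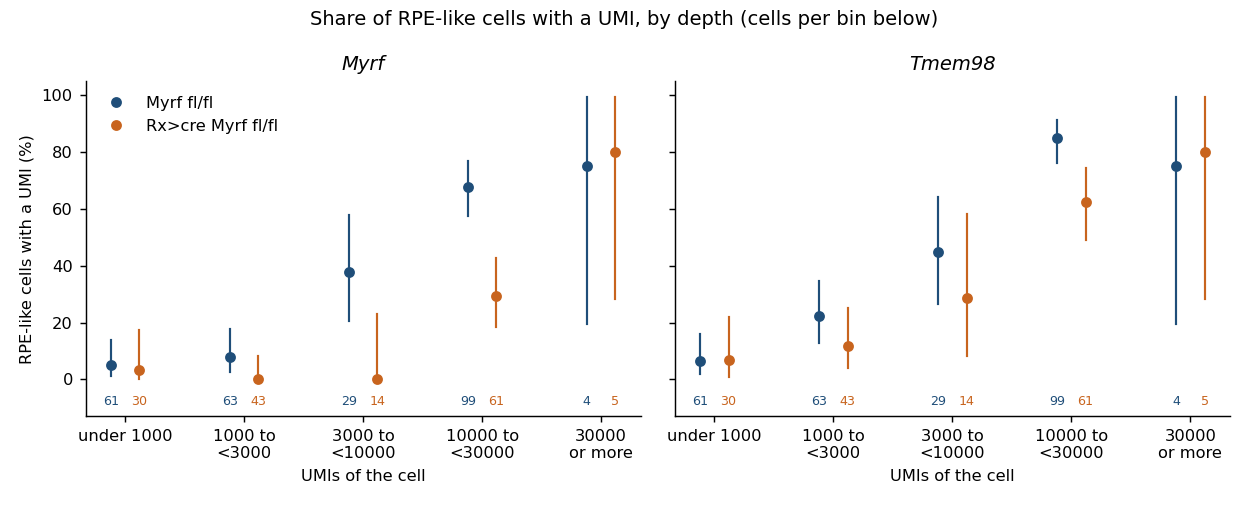
Share of RPE-like cells with at least 1 UMI of Myrf (left) or Tmem98 (right) by the total UMIs of the cell, in percent, for the Myrf fl/fl (blue) and Rx>cre Myrf fl/fl (orange) libraries. Points are shares, lines are 95% Clopper-Pearson intervals, and the numbers below are the cells in each bin. From 10000 to under 30000 UMIs the shares are 67.7% and 29.5% for Myrf and 84.8% and 62.3% for Tmem98, and the bins of 30000 UMIs or more hold only 4 and 5 cells.

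The members were next compared cell by cell. In the control RPE-like cells 72 held both transcripts, where 41.0 would if each were placed independently, and in the mutant 14 did, where 7.97 would. A deep cell has more of every transcript, so both were counted again at matched depth. At 3000 UMIs per cell, averaged over draws, 8.62 control cells held both where 8.42 would, a ratio of 1.02 (0.489 to 2.03). At 5000 UMIs 19.4 held both where 18.8 would, a ratio of 1.03 (0.609 to 1.58). In the mutant cells the numbers at 5000 UMIs were 1.80 and 1.80, a ratio of 0.996 (0.134 to 4.01). Co-detection beyond independence was therefore not detectable at matched depth.

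The level of Tmem98 was also set against the presence of a Myrf UMI in the same cell, in cells with at least 10000 UMIs. The 70 control cells with a Myrf UMI had Tmem98 at 139 CPM (118 to 162), and the 33 without had it at 119 CPM (92.0 to 151). The 22 mutant cells with a Myrf UMI had Tmem98 at 61.0 CPM (40.9 to 87.6), and the 44 without had it at 61.1 CPM (45.6 to 80.1). In both libraries the intervals of cells with and without a Myrf UMI overlap over most of their length. The 70 control cells held 130 Myrf UMIs in all and the 22 mutant cells 29. At such low counts, whether a cell shows a Myrf UMI depends largely on sampling. The division therefore sorts cells poorly by Myrf level, and it cannot decide whether Tmem98 follows Myrf from cell to cell.

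Tmem98 was also read by pigment gene content. The RPE-like cells with at least 10000 UMIs were divided in each library at the median share of their UMIs from the melanin genes Pmel, Dct, Tyr, Tyrp1, Mlana and Slc45a2. In the control, Tmem98 was at 174 CPM (147 to 205) in the 51 cells above the median and at 95.04 CPM (76.2 to 117) in the 52 at or below it. Myrf was at 76.7 CPM (59.0 to 98.2) and 72.4 CPM (56.1 to 91.9) in the same cells. Tmem98 thus differed between these control cells beyond counting error, and Myrf did not. In the mutant, Tmem98 was at 78.8 CPM (58.7 to 103.6) and 44.2 CPM (29.8 to 63.1), intervals that overlap slightly, and Myrf at 23.2 CPM (12.97 to 38.2) and 20.6 CPM (11.3 to 34.6). The mutant cells above the median were below the control cells above it for both genes, and likewise for those at or below it. These divisions were made after the data had been seen, and the melanin genes also helped to define the RPE-like cells.

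**Figure D4:**
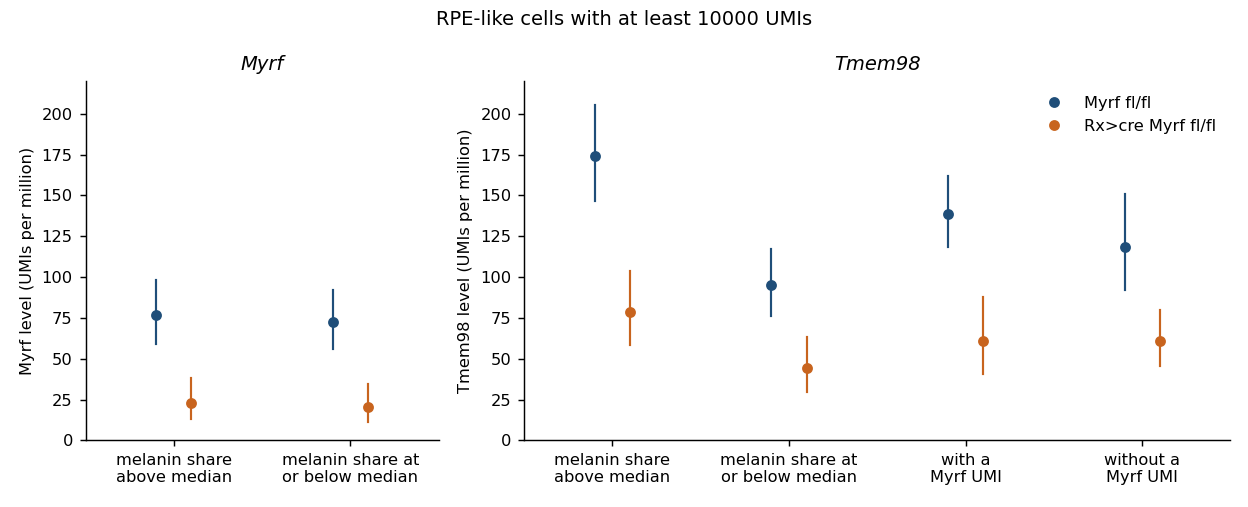
Levels of Myrf (left) and Tmem98 (right), in UMIs per 1000000 UMIs, in RPE-like cells with at least 10000 UMIs, divided at the median melanin share of each library and, for Tmem98, by the presence of a Myrf UMI. Points are sums over cells of the Myrf fl/fl (blue) and Rx>cre Myrf fl/fl (orange) libraries and lines 95% Poisson intervals. Control Tmem98 is at 174 CPM above and 95.04 CPM at or below the median, while Myrf is at 76.7 and 72.4 CPM.

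The RPE-like cells of the libraries also differed in other ways that move with these results. RPE markers summed to 14219 CPM in the control and 10252 CPM in the mutant cells. Retinal ganglion markers summed to 191 CPM in the control, with all 10 detected, and to 46.2 CPM in the mutant, with 9 detected. Neurogenic precursor markers summed to 282 and 543 CPM, with all 8 detected in each, and red blood cell markers to 1006 and 1389 CPM, with 8 of 9 detected in each. Melanocyte markers summed to 9398 and 7345 CPM, with 6 of 7 detected in each. Of these, Dct, Pmel, Mlana and Tyr are also RPE markers. The melanocyte marker Pax3 was at 0 in the RPE-like cells of both libraries. Neurogenic precursor-like and ganglion-like cells held at most 0.738 CPM of Myrf in either library. Their part in the lower Myrf and Tmem98 levels was not tested.

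The genes known to act with MYRF were then read in the RPE-like cells, as 5 lists, over the genes whose UMIs in the libraries summed to 10 or more. The lists were chosen with earlier results of these data known. The authors report Sox10, Ermn and Trf among the genes lower in mutant RPE, so the counts and medians of the lists are descriptions. Of all 11229 such genes, 4.48% had a log2 ratio at or below -1 and 2.68% at or above 1, and 8.18% had an interval wholly below 0 and 6.34% wholly above. Of the genes acting on the MYRF protein or related to it, 3 of 4 could be compared, and Tmem98 alone had an interval below 0. Gsk3b and Fbxw7, a kinase and a ubiquitin ligase subunit that mark MYRF for degradation, had log2 ratios of -0.23 (-0.49 to 0.03) and 0.45 (-0.25 to 1.14). Myrfl, the paralogue of Myrf, had 0 UMIs in both. The list thus held 1 gene past a log2 ratio of -1 and had a median of -0.23, where the median of all compared genes was -0.04.

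In the list of transcription factors and chromatin proteins that work with MYRF in oligodendrocytes, 5 of 10 genes could be compared. Sox10, which induces Myrf in oligodendrocytes and acts with it on myelin genes, had 15 UMIs in control and 0 in mutant RPE-like cells, a level at least 3.58-fold lower in the mutant at a limit of 3 counts. Its interval alone lay below 0. Zfp24, Tcf7l2, Chd7 and Smarca4 had log2 ratios from -0.05 to 0.28 with intervals across 0. The median of the list was 0.06, also with Sox10 at that limit. Olig1, Nkx2-2 and Nkx6-2, regulators of the oligodendrocyte lineage, had no UMI in RPE-like cells of either library, and Olig2 and Zfp488 had 1 each.

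Of 18 oligodendrocyte and myelin genes 10 could be compared, and the intervals of 3 lay below 0 and of 0 above. Over all compared genes these shares were 8.18% and 6.34%. Ermn, which encodes an actin-binding cytoskeletal protein of myelinating cells, went from 57 control UMIs to 4, a log2 ratio of -3.05 (-5.27 to -1.92), the lowest of the 6922 genes with at least 50 UMIs. Trf, which encodes the iron carrier transferrin, went from 116 UMIs to 25, a log2 ratio of -1.69 (-2.42 to -1.10). Cntn2, a cell adhesion protein of myelinated axons, had 10 control UMIs and 0 in the mutant. Its control level was 2.39-fold a mutant limit of 3 counts, and the interval of its log2 ratio ended at -0.68. The classical myelin genes were scarce. Mbp had 13 and 7 UMIs and Cnp had 33 and 27, each with an interval across 0, and Mog, Mobp and Opalin had 0 in both. Rffl, Nfasc, Aspa and Cldn11 had 41 or fewer UMIs each over both libraries, and intervals across 0. Mag, Gpr37, Dusp15 and Ugt8a were under the minimum of 10 UMIs. The median of the 10 was -0.42, also with Cntn2 at its limit of 3 counts.

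Among other nanophthalmos genes, Mfrp, a membrane protein of the RPE, could be compared, with 21 and 12 UMIs and a log2 ratio at -0.28 (-1.48 to 0.77). Prss56, Best1 and Crb1 had 2 or fewer UMIs in each library. The transcription factors of RPE identity were all counted, and 4 of 7 had an interval below 0, though 0 passed a log2 ratio of -1. Of all genes with at least 10 UMIs, 8.18% had an interval below 0 and 4.48% were at or below -1. Well counted genes clear 0 at smaller ratios, and these 4 were well counted, so the 2 shares are not alike. Sox9 was lowest, with 293 and 113 UMIs and a log2 ratio at -0.88 (-1.22 to -0.57). Otx1, Otx2 and Lhx2 were at -0.40 (-0.81 to -0.02), -0.37 (-0.55 to -0.19) and -0.32 (-0.55 to -0.09). Mitf, the regulator of pigment cell genes, was at -0.17 (-0.42 to 0.07) and Pax6 at -0.15 (-0.36 to 0.06). The log2 ratios of Myrf and Tmem98 were below those of all 7, and the median of the list was -0.32.

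**Figure D5:**
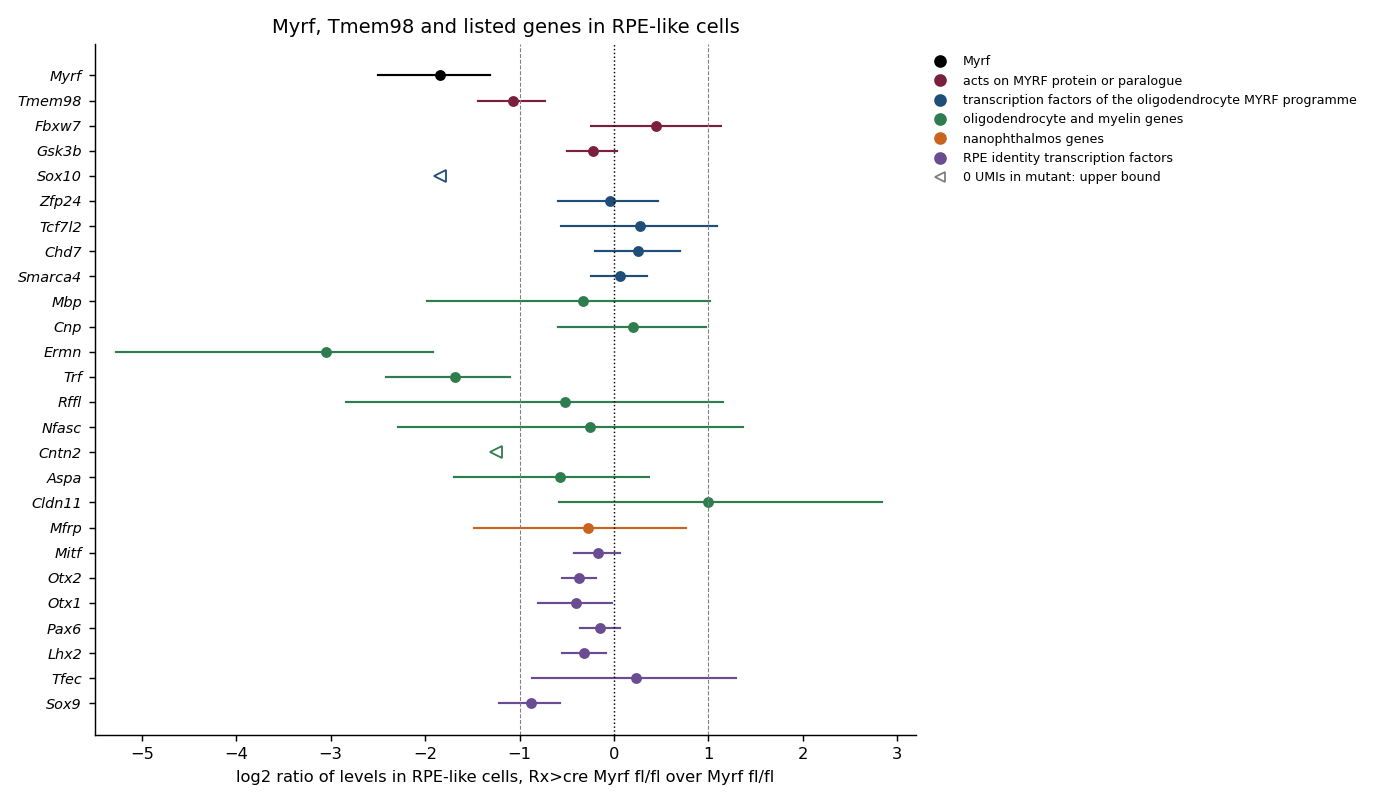
Log2 ratio of the level in RPE-like cells for Rx>cre Myrf fl/fl over Myrf fl/fl cells, for Myrf and listed genes whose UMIs summed to 10 or more, coloured by list. Points are ratios, lines 95% conditional binomial intervals, and dashed lines mark log2 ratios of -1 and 1. Open triangles for Sox10 and Cntn2 set a mutant limit of 3 counts against the control level, without the counting error of the control. Myrf at -1.85, Tmem98 at -1.07, Ermn at -3.05 and Trf at -1.69 lie to the left of the lower dashed line. So do the triangles of Sox10 and Cntn2, though the interval of Cntn2 reaches up to -0.68.

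The genes whose pattern over classes was most like that of each member were named by Pearson's r of log2(CPM + 10) over 26 points, 1 per named class and library, among 6593 genes. These points share 2 libraries and the values are descriptions. For Myrf the closest was Slc16a8, a lactate transporter of the RPE, with r = 0.971 and 185 control and 21 mutant UMIs in RPE-like cells and a log2 ratio at -2.60 (-3.38 to -2.002). It was followed by Tspan10, Ttr, Tdrd9, Myrip, Gm13111, Gm45847 and Ifit3b with r down to 0.947, and all 8 had log2 ratios in RPE-like cells with an interval below 0, from -2.60 to -0.53. Likeness over these points included the RPE-like level of both libraries, so such ratios go with the choice. Without the RPE-like points, r stayed at 0.926 for Slc16a8 and 0.860 for Tspan10, and lay between -0.105 and 0.637 for the other 6, so their likeness rested on the RPE-like cells.

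For Tmem98 the closest were Sesn3, Atp11a, Kat6b, Wdtc1, Wdr6, Ginm1, L3hypdh and Tmem246, with r from 0.875 to 0.850. Sesn3, a stress-responsive protein of the sestrin family, was counted 617 and 265 times, with its log2 ratio at -0.73 (-0.95 to -0.53). Atp11a, Kat6b, Wdtc1 and Ginm1 also had intervals below 0, with ratios from -0.96 to -0.52, and Wdr6, L3hypdh and Tmem246 had ratios from -0.30 to -0.16 with intervals across 0. Of all genes with at least 10 UMIs, 8.18% had an interval below 0. As for Myrf, the likeness included the RPE-like level of both libraries, so lower ratios go with the choice. Between Myrf and Tmem98 r was 0.643, and 0.358 over the 24 points without RPE-like cells.

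The neighbours of each gene on its chromosome had few UMIs apart from Tmem258. Beside Myrf, Fen1, a nuclease of DNA replication, had 42 and 45 UMIs in RPE-like cells and a log2 ratio of 0.58 (-0.06 to 1.22), and Syt7 and Dagla had 16 or fewer UMIs over both libraries. Beside Tmem98, Myo1d had 20 and 11 UMIs and a log2 ratio at -0.32 (-1.59 to 0.75), Cdk5r1 had 6 UMIs in all, and Spaca3 and Asic2 had 0.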

How the data were processed

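The authors prepared 10x Genomics 3′ single cell libraries and deposited raw UMI counts per gene and barcode for called cells, without normalization. The submitters' processing notes name Cell Ranger 7.1.0, Seurat 4.1.1 and mm10, and whether intronic reads were counted is not given in the sources used here. Barcodes were kept with 200 or more genes and a mitochondrial share of at most 15%. Scrublet (scanpy 1.11.5, doublet rate set to 5%) then marked as doublets 68 control and 65 mutant barcodes (1.23% and 1.02%), which were removed. Cells were integrated on 1984 variable features and clustered in Seurat 5.3.0 (R 4.3.3) with 30 dimensions at resolution 0.8. Both members, the listed genes and their neighbours were left out of these features. A cluster was named from at least 3 detected markers of a class. Deposited UMI counts were summed by class and library and divided by all UMIs of the class. Shares after thinning are averages over all possible draws. Log2 ratios had 1 UMI added to each sum. Differences of log2 ratios between classes came from a conditional odds ratio of the counts, with no UMI added. Intervals were computed in Python 3.11.15 with scipy 1.17.1 and the ratio was tested on simulated data. Depth, 63483835 and 75228861 UMIs, sets the intervals. Genes named were the members, 5 lists of genes known to act with MYRF or in the RPE, the nearest 2 protein-coding genes on either side, and the 8 genes most like each member. The members and lists were chosen with earlier results of these data known. Alternatives were no doublet removal, a maximum of 2000 or of 20000 UMIs in a cell, a 5% mitochondrial limit, resolutions 0.4 and 1.6, a rule per cell, other denominators and weights, only cells with at least 3000 UMIs, and other depths of thinning. Positions are from GENCODE on GRCm38. Other ages were not analysed here. Some of the listed genes enter the list counts and medians but are not reported here by name.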

Additional observations from a re-analysis of the deposited data

How the results depend on the processing

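Of the 11 alternatives for the log2 ratios in RPE-like cells, the limit of 2000 UMIs per cell alone moved them beyond their interval, to -0.97 (-7.27 to 1.45) for Myrf from 5 control UMIs and 1 mutant UMI, and to -0.39 (-2.40 to 1.12) for Tmem98 from 11 and 5, so that both intervals hold 0. The authors' methods state this limit, for the removal of doublets, and the main results here did not use it. Under the other alternatives Myrf lay between -2.09 (mitochondrial limit of 5%) and -1.55 (limit of 20000 UMIs) and Tmem98 between -1.40 (limit of 20000 UMIs) and -0.75 (mean over cells in place of sums). Shares of RPE-like cells with Myrf moved with depth, to 10.9% of control cells at 1500 UMIs, 31.4% at 5000 UMIs and 34.8% without thinning, and in the mutant to 15.03% without thinning. For Tmem98 they were 18.5% at 1500, 48.2% at 5000 and 46.1% without thinning in the control, and 34.6% without thinning in the mutant. The ratio of observed to independent co-detection in the control went from 1.76 without thinning to 1.02 at 3000 UMIs. The share of genes at or below a log2 ratio of -1 was 4.48% at a minimum of 10 UMIs and 1.08% at 100 UMIs, and at or above 1 it was 2.68% at a minimum of 10 UMIs. Leaving out barcodes shared by the libraries, added after seeing the data, changed no direction, with -1.86 for Myrf and -1.07 for Tmem98. Class levels under 4 settings also added after seeing the data were within their intervals in 96 of 96 cases for Myrf and 94 of 96 for Tmem98. No paired analysis was possible because each genotype has 1 library. Counting depth limits what small classes can show, and with 1 library per genotype the spread between litters, pools and library preparations is not in any interval.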
